A study of Heliocidaris erythrogramma with 5 samples.

Results

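Cells carrying the serotonergic markers *Tph* or *Sert* were examined in single-cell libraries of *Heliocidaris erythrogramma* (*He*), a sea urchin whose larvae develop without feeding. The study collected the libraries to follow larval and adult body plans through development, with 1 library at each of 36, 42, 48, 56 and 60 hours post fertilization (hpf). Whole larvae were dissociated and their cells fixed in methanol, no genotype or treatment distinguished the groups, and the number of larvae behind a library is not given in the sources used here. A cell was counted as a marker cell when at least 1 unique molecular identifier (UMI, a tag that marks 1 captured RNA molecule) of either gene was read in it, over all copies of the symbol. Cells were kept with more than 200 and fewer than 4000 genes and fewer than 10000 UMIs, and of 26740 such cells 184 met this rule, 0.688% (95% Clopper-Pearson interval 0.593 to 0.795). *Tph* and *Sert* therefore chose the cells, and their values are given as a description. Symbols are those of the files without the prefix Sp-, and UMIs are also given as counts per 1000000 UMIs of the summed cells (CPM).

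Serotonergic neurons of sea urchin larvae arise in the animal pole domain, the anterior neurogenic ectoderm marked by *six3*, *foxq2*, *hbn* and *fzd5/8*, and are known for their cell bodies in the apical organ. *Tph* encodes tryptophan hydroxylase, the rate-limiting enzyme of serotonin synthesis, which needs the cofactor tetrahydrobiopterin. Serotonin is then made by an aromatic amino acid decarboxylase, loaded into vesicles by the vesicular monoamine transporter, taken back up by the transporter encoded by *Sert* and broken down by monoamine oxidase. *Secrtag* is one of the pan-neural genes by which the study picked out neural clusters, and its detection in a cell was used here to split the marker cells.

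The libraries held 4085 to 8975 barcodes and 4194872 to 12147560 UMIs. Marker cells were deeper than the rest, with a median of 1989.5 UMIs against 1139 in other cells, and they ranged from 553 to 9374 UMIs. Among all kept cells 71 barcodes occurred in more than 1 library, and 2 marker cells carried such a barcode. The library labelled 56 hpf bears another age, 54 hpf, in its file name and in the methods of the study, and the label was kept. As each age had 1 library, age and library cannot be told apart. Intervals on UMIs and cells cover counting error only.

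Marker cells were found in every library. They numbered 31 of 5314 cells at 36 hpf, 31 of 4268 at 42 hpf, 27 of 4080 at 48 hpf, 16 of 4106 at 56 hpf and 79 of 8972 at 60 hpf. These are shares of 0.583%, 0.726%, 0.662%, 0.390% and 0.881% in order of age. The 60 hpf share was the highest and the 56 hpf share the lowest, and the interval of 60 hpf (0.698 to 1.10) lay above that of 56 hpf (0.223 to 0.632), while all other pairs of ages overlapped. With every cell thinned to 500 UMIs, which no marker cell but 11 others of 36 hpf and 509 of 56 hpf were too shallow for, 77 of 26220 cells (0.294%) met the rule and the intervals of all ages overlapped. Without the 60 hpf library the share was 0.591%.

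**Figure D1:**
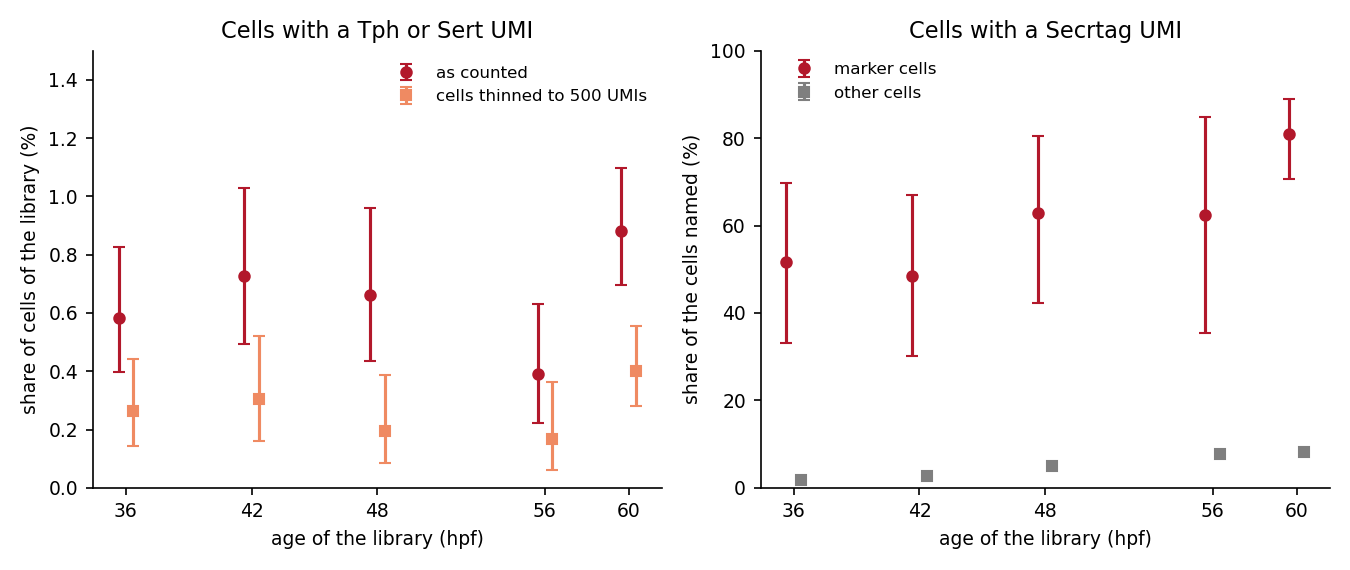
Left, the share of cells of each library with a *Tph* or *Sert* UMI in percent against age in hpf, as counted (circles) and with cells thinned to 500 UMIs (squares). Right, the share with a *Secrtag* UMI among marker cells (circles) and other cells (squares), with 95% Clopper-Pearson intervals in both panels. Marker cells lie between 48.4% and 81.0% in the right panel and other cells between 1.80% and 8.16%.

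Both markers were sparse. *Tph* was read in 142 cells, 96 of them without *Sert*, and *Sert* in 88 cells, 42 of them without *Tph*, so that 46 cells held both. *Tph* was carried by 2 features. HER_27402.t1 had 228 UMIs in 134 cells, 43, 43, 33, 26 and 83 in order of age, and HER_27371.t1 had 9 UMIs in 9 cells, of which 1 held *Secrtag*. *Sert*, HER_20.t1, had 231 UMIs, namely 31, 15, 25, 29 and 131. Set against the UMIs of whole libraries, *Tph* lay at 5.51, 5.10, 6.13, 6.44 and 7.17 CPM and *Sert* at 3.88, 1.74, 4.38, 6.92 and 10.8 CPM. Thus *Sert* was lowest at 42 hpf and highest at 60 hpf, and *Tph* varied less. Of *Tph* cells, 32.4% (24.8 to 40.8) held *Sert*, against 0.158% of cells without *Tph*. After thinning, the share among *Tph* cells was 20.8%.

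The share in cells that should lack these genes was also counted, over few cells. Among 106 cells with at least 3 UMIs of *Pks1*, a polyketide synthase of pigment cells, 1 held a *Tph* or *Sert* UMI, 0.943% (0.0239 to 5.14), at a median of 1586.5 UMIs against 1144 in all kept cells. This interval holds the 0.688% of all cells, so the 2 shares cannot be told apart at this number of cells, and the part of free RNA in marker cells with a single UMI was not tested. Among *Secrtag*-positive cells the share was 7.75% (6.47 to 9.18), or 122 of 1575.

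*Secrtag* separated the marker cells into unequal parts. It was detected in 122 of 184 marker cells, 66.3% (59.0 to 73.1), against 1453 of 26556 other cells, 5.47% (5.20 to 5.75). By age the marker cells with *Secrtag* numbered 16 of 31, 15 of 31, 17 of 27, 10 of 16 and 64 of 79, and the other cells with it 1.80%, 2.69%, 4.96%, 7.75% and 8.16%. In each library the interval of marker cells lay above that of other cells. The 60 hpf library weighed most in the pooled share, which was 55.2% without it. After thinning, *Secrtag* was detected in 61.0% of 77 marker cells against 3.81% of other cells.

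Detection of *Secrtag* went with the number of *Tph* and *Sert* UMIs in a cell. Cells with 1 such UMI held *Secrtag* in 46.3% (50 of 108), those with 2 in 92.6% (25 of 27) and those with 3 or more in 95.9% (47 of 49), with median depths of 1927.5, 2153 and 2263 UMIs. All 21 cells with at least 3 *Tph* UMIs and all 30 with at least 3 *Sert* UMIs were *Secrtag*-positive. The 62 *Secrtag*-negative marker cells held at most 2 UMIs of either gene, and 4 of them reached a sum of 2, against 72 of the 122 *Secrtag*-positive ones. *Secrtag*-positive cells thus carried 76.8% of *Tph* UMIs (182 of 237) and 93.9% of *Sert* UMIs (217 of 231). Their median depth was 2204.5 UMIs against 1585.5 in *Secrtag*-negative marker cells.

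**Figure D2:**
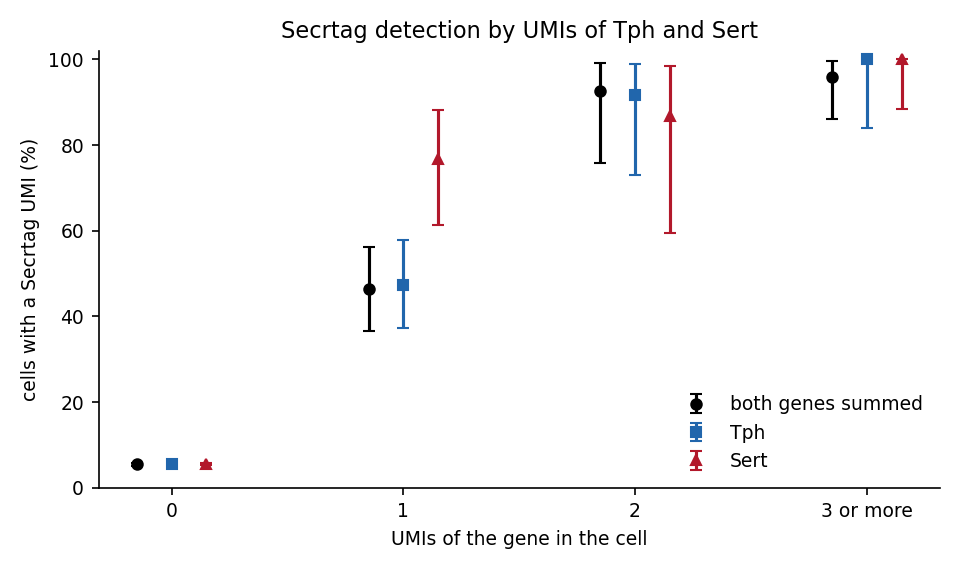
Share of cells with a *Secrtag* UMI in percent (vertical axis) against the UMIs of *Tph*, of *Sert* and of both summed in the cell (horizontal axis), with 95% Clopper-Pearson intervals. Cells without either gene stand at 5.47%, cells with 1 UMI of the sum at 46.3% and cells with 2 at 92.6%.

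*Secrtag* itself was also higher per cell in marker cells that held it. Its median was 10 UMIs in the 122 *Secrtag*-positive marker cells and 3 in the 1453 other *Secrtag*-positive cells. By age the medians were 6, 9, 10, 32.5 and 9 UMIs in the marker cells and 2, 4, 2, 2 and 3 in the others. Scaled to depth, the levels were 5700, 6378, 5416, 20943 and 7617 CPM in the marker cells and 3939, 3293, 3863, 3951 and 2523 CPM in the others, which do not overlap. The 56 hpf library, with 10 such marker cells, stood highest. These levels are described without a test, since *Secrtag* set the groups.

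Which other genes marked these cells was asked first against all other cells of the same libraries. UMIs were summed per library in the 184 marker cells and in 26556 other cells, and the sums were compared by edgeR's quasi-likelihood test with the library as a block, Benjamini-Hochberg adjusted over all features tested and called at an adjusted p under 0.05. The p-values measure how the difference between the groups varies over 5 libraries that also differ in age. Of 14246 features with at least 50 UMIs, 1030 were called (7.23%), 807 higher in marker cells (5.66%) and 223 lower (1.57%). The split of calls depended on how the libraries were scaled, with 554 higher and 664 lower under DESeq2 size factors. Comparisons given below draw on overlapping cells and are not independent of this one.

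The 10 leading genes were each read in fewer than 1 in 2 marker cells and in under 1 in 100 other cells. *Syt9L_1*, a synaptotagmin-like gene of the family of vesicle calcium sensors, had 82 UMIs in 40 of 184 marker cells against 22 UMIs in 18 of 26556 other cells. Its level was 205, 175, 216, 236 and 173 CPM in marker cells in order of age, against 0.126, 0.117, 0.355, 0.721 and 1.26 CPM in other cells, with no overlap. The log2 difference was 8.60 (SE 0.48, adjusted p = 3.42e-68). *Ras/Dva*, a small GTPase of the Ras family, had 92 against 28 UMIs, a log2 difference of 8.23 (SE 0.46, adjusted p = 3.583e-69). So 78.8% of all *Syt9L_1* UMIs and 76.7% of all *Ras/Dva* UMIs of the 5 libraries lay in the 184 marker cells.

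Light and peptide receptors followed. *Opsin3.1*, a member of the opsins, the light-sensing receptors, was read in 79 of 184 marker cells (42.9%) and in 128 of 26556 other cells (0.482%). Its level was 777, 489, 446, 472 and 656 CPM in marker cells against 2.65, 1.52, 6.75, 3.85 and 6.28 CPM in other cells, a log2 difference of 7.25 (SE 0.27, adjusted p = 2.106e-151). It was high in marker cells of every library. *Orxn/HpcLr1*, named as an orexin-type receptor, was higher by 6.89 on the log2 scale and *Vstc/GnrhLr*, named as a vasotocin or gonadotropin-releasing hormone receptor, by 6.47, with 165 against 144 and 371 against 443 UMIs. *Galr2L_14*, named for galanin receptors, had 72 against 91 UMIs (log2 difference 6.43).

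The other leading genes were 2 guanylyl cyclases, a kinase-type receptor and a forkhead factor. *Gucy1b2_1*, named as a subunit of soluble guanylyl cyclase, the enzyme that makes cyclic GMP, had 554 UMIs in 27 marker cells against 742 UMIs in 153 other cells (log2 difference 6.53, SE 0.21, adjusted p = 1.672e-204). *Gucy2gL* had 35 against 39 UMIs (log2 difference 6.49). *RetL*, whose name refers to the receptor tyrosine kinase Ret, had 381 against 357 UMIs (6.77). *FoxD_1*, a forkhead transcription factor, lay at 736, 1445, 1230, 442 and 918 CPM in marker cells, against 2.02, 13.9, 18.3, 16.1 and 17.2 CPM in other cells (6.37, SE 0.23). All 10 genes, chosen to be higher in each of the 5 libraries, kept their call in every alternative run.

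Genes called lower included 5 leading ones with no UMI in any marker cell, for which only a bound against the limit of 3 UMIs can be given. *Not*, a homeobox gene of the oral ectoderm, was at least 4.89-fold lower (0 UMIs in marker cells against 1294 in other cells, adjusted p = 0.0006488), and *YP30/FascL* at least 4.52-fold (0 against 1197). *Mcm6*, part of the helicase that opens DNA for replication, was at least 3.93-fold lower (0 against 1041), *Astacin2*, named for metalloproteases, at least 3.79-fold (0 against 1002) and *Samd1L* at least 2.92-fold (0 against 773). The calls of *Astacin2* and *Samd1L* were lost without the 60 hpf library, and none of the 5 was called when the cells were held to 1 band of depth.

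Of the genes that handle serotonin, a minority rose, and their direction as a list depended on the scaling. *Tph* and *Sert* aside, 21 features of this list were tested, of which 3 were called higher and none lower. Of all features 5.66% were called higher and 1.57% lower, and the medians were 0.06 for the list and 0.10 for all features. The list median was -0.54 with TMM factors over all features, where 2 were called higher and 2 lower. *Maob*, a monoamine oxidase (HER_44859.t1), had 24 UMIs in 18 marker cells against 37 UMIs in 33 other cells (log2 difference 5.998, SE 0.52). *Slc18a2*, the vesicular monoamine transporter, had 58 UMIs in 31 marker cells against 129 in 104 other cells (5.05, SE 0.50), and *Gch1_1*, the enzyme of the first step of tetrahydrobiopterin synthesis, 128 against 4993 UMIs (1.31, SE 0.23).

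Genes of synapses and secretion rose more broadly. Of 23 features tested, 14 were called higher and 1 lower, beside 5.66% and 1.57% of all features. The median log2 difference was 1.55, and 12 to 14 were called higher and 0 to 2 lower under the other scalings and in the depth band. *Rims_1*, a scaffold of vesicle release sites, was higher by 5.43, *Pcsk2*, a prohormone convertase, by 4.89, *Pam_2*, which amidates neuropeptides, by 4.72 and *Syt4* by 4.07. One *CalmL1* feature, HER_19128.t2, was lower (log2 difference -0.65), while *CalmL1* HER_17538.t1 was higher (3.96). The neural markers of the study thus accompanied the serotonergic ones, with *Syt4* in 83 of 184 marker cells against 747 of 26556 other cells. Of 27 features of other transmitters, 2 were called higher, beside 5.66% of all features, which is too few to read as a rise of the list. *Nos_1*, a nitric oxide synthase, was higher by 5.36. *Vacht*, the vesicular acetylcholine transporter, was higher by 2.07, on 32 UMIs in 5 marker cells, 27 of them at 42 hpf, and in 2 of 5 libraries.

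Transcription factors of the anterior neuroectoderm and of neurogenesis went both ways. Of 29 features tested, 8 were called higher and 3 lower, beside 5.66% and 1.57% of all features. The list median of 0.13 turned to -0.51 with TMM factors over all features, where 8 were higher and 8 lower. *Z133_1*, known in sea urchins as *fez*, was higher by 4.45, *Lhx2_1* (HER_47770.t1) by 3.34, *Insm* by 2.65, *Ebf* by 2.49, *Myt1* by 1.61 and *Rax* by 1.49. *Brn1/2/4* was higher by 2.48 with UMIs in 3 marker cells. *NeuroD* (-3.20, 1 UMI against 896), *Lim1* (-1.11) and *SoxB1* (-0.74) were lower. Of the animal pole domain markers *Six3*, *Foxq2*, *Hbn* and *Fzd5/8*, none of 4 features tested was called, beside 7.23% of all features, which is too few to read. Their summed level was 933 CPM in marker cells against 896 CPM in other cells. In *Secrtag*-positive marker cells it was 882 CPM (321 to 1851 by library), against 1446 CPM (1144 to 2680) in other *Secrtag*-positive cells.

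Markers of other cell types were also read in the marker cells. Summed pigment markers were at 515 CPM in marker cells (58.3 to 1415 by library) against 1346 CPM in other cells. Of 13 features 0 were called higher and 3 lower, beside 5.66% and 1.57% of all features. Blastocoelar markers stood at 353 against 473 CPM, posterior ectoderm markers at 298 against 485 CPM, rudiment ectoderm markers at 1076 against 1455 CPM and ciliary band markers at 2292 against 3489 CPM. Skeletal markers stood at 43.9 against 44.1 CPM, and *Alx1* was called higher from 16 UMIs in 2 *Secrtag*-negative marker cells, higher in 1 of 5 libraries. The gut list stood at 1113 against 211 CPM, and *FoxD_1*, which it holds, gave 441 of its 482 UMIs in marker cells. Within *Secrtag*-positive marker cells the skeletal markers *Alx1*, *Sm50* and *Sm37* were at 0 and *Msp130r2* had 1 UMI. The part of such RNA in the comparisons was not tested.

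The *Secrtag* split was then compared within the marker cells, 122 positive against 62 negative ones, over features with at least 20 UMIs. Of 3152 features, 496 were called (15.7%), 367 higher in *Secrtag*-positive cells (11.6%) and 129 lower (4.09%). Among cells of 1 depth band, which left 3 libraries and 1110 features, 64 were called higher and 3 lower. Several genes that led the first comparison were read in *Secrtag*-positive marker cells alone. *Gucy1b2_1* had 65, 144, 128, 75 and 142 UMIs in *Secrtag*-positive marker cells and 0 UMIs in *Secrtag*-negative ones, at least 73.0-fold higher (adjusted p = 4.323e-40). *Orxn/HpcLr1* had 165 against 0 UMIs (at least 21.7-fold) and *Galr2L_14* 72 against 0 (at least 9.49-fold).

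Further receptors and secretion genes showed the same contrast. *Syt12* had 89 UMIs in *Secrtag*-positive marker cells against 0 in *Secrtag*-negative ones (at least 11.7-fold higher) and *Hs3st5L_2*, a heparan sulfate sulfotransferase, 76 against 0 (at least 10.0-fold). *Taar7eL_2*, named for trace amine receptors, and *Galr2L_7* each had 63 against 0 UMIs (at least 8.30-fold). *Npr1_7*, named for receptor guanylyl cyclases, lay at 1027, 1262, 709, 2487 and 930 CPM in *Secrtag*-positive marker cells and at 0, 0, 0, 72.4 and 0 CPM in *Secrtag*-negative ones (log2 difference 6.79, SE 0.66, adjusted p = 1.688e-22). *Kiaa1751L_1*, for which no role is given here, lay at 3930, 7663, 7759, 8457 and 3397 CPM against 0, 23.7, 86.2, 72.4 and 87.8 CPM (6.90, SE 0.42, adjusted p = 4.362e-58). For both of these genes, chosen to be higher in every library, every *Secrtag*-positive value lay above all *Secrtag*-negative ones. *Galr2L_14*, *Taar7eL_2* and *Hs3st5L_2* lost their call in the depth band.

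Of 6 features of the division list, *Cdk1* and *Top2a_1* were called lower in the *Secrtag*-positive marker cells and none higher, beside 4.09% of all features called lower, and 1 of the 6 was called lower by DESeq2. *Cdk1*, the mitotic kinase, had 8 UMIs in *Secrtag*-positive marker cells against 32 in *Secrtag*-negative ones, at 0, 0, 39.4, 49.8 and 29.8 CPM against 194, 237, 302, 724 and 43.9 CPM (log2 difference -2.93, SE 0.65, adjusted p = 0.0001337). *Chaf1a*, a chromatin assembly factor, had a log2 difference of -2.49, and its call was lost without the 48 hpf library. *Gli*, the transcription factor of Hedgehog signalling, had a log2 difference of -3.26, *Cyp27L*, a cytochrome P450, of -3.17 and *Adamts9*, a secreted protease, of -2.88. *Cyp27L* lost its call without the 48 hpf library and *Adamts9* without the 42 hpf library. Summed, the division list stood at 380 CPM in *Secrtag*-positive marker cells, 1255 CPM in *Secrtag*-negative ones and 1236 CPM in all other cells.

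Of 17 synapse and secretion features, 13 were called higher and 1 lower in this split, with a median log2 difference of 2.33 against 0.24 over all features. Beside the lists given here, 11.6% of all features were called higher and 4.09% lower. *Pam_2* was higher by 5.30, *Rims_1* by 4.39 and *Syt4* by 4.21. In the neuron subtype list of the study 7 of 13 were higher and none lower, among them *Gpr51* (HER_17257.t1, 4.69), *Otp* (4.16), *FoxD_1* (3.52) and *Ets1/2* (1.80). For serotonin handling, 3 of 4 features were called higher (*Gch1_1* 1.37, *Slc18a2* 2.36 and *Maob*, 24 UMIs against 0, at least 3.16-fold), but 1 of 4 with other scalings in edgeR and none by DESeq2. The list median was 1.86, and 1.51 with *Maob* at its bound. *Z133_1* was called higher in the anterior list and *SoxB1*, *SoxC* and *Smadip* (HER_39411.t1) lower, of 15 tested. *Opsin3.1* was higher by 2.31 (72 of 122 cells against 7 of 62).

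How the marker cells differed from other neural cells was asked by setting the 122 *Secrtag*-positive marker cells against the 1453 other *Secrtag*-positive cells of the same libraries. Of 9559 features with at least 20 UMIs, 419 were called (4.38%), 286 higher in the marker cells (2.99%) and the remainder lower (1.39%). Under DESeq2 size factors 201 were higher and 284 lower. Median depths were 2204.5 UMIs in the marker cells and 1488 in the others, and within 1 band of depth the genes that led upwards kept their calls.

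The 10 genes with the largest differences upwards were chosen among called genes higher in each of the 5 libraries. For these the 5 libraries of the marker cells all lay above the 5 of the other cells, which that choice favours. *Syt9L_1* was read in 37 of 122 marker cells against 7 of 1453 others. Its level was 319, 275, 315, 398 and 197 CPM in the marker cells and 0, 0, 0, 4.50 and 5.98 CPM in the others (log2 difference 6.11, SE 0.46, adjusted p = 1.593e-37). *Ras/Dva* was found in 37 against 10 cells (5.78, SE 0.44, adjusted p = 7.199e-37). *Opsin3.1* was found in 72 marker cells (59.0%) against 40 others (2.75%). Its level was 1204, 665, 649.9, 796 and 709 CPM in the marker cells and 0, 3.69, 61.6, 8.995 and 26.6 CPM in the others (5.16, SE 0.30, adjusted p = 3.958e-63). *Opn5L*, named for another opsin, was higher by 4.16 (48 against 39 cells).

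*Nos_1* makes a gaseous transmitter that acts on soluble guanylyl cyclase. It was read in 25 of 122 marker cells against 17 of 1453 others, at 106, 115, 138, 299 and 125 CPM in the marker cells and 0, 0, 5.35, 6.75 and 9.30 CPM in the others (log2 difference 4.57, SE 0.52, adjusted p = 5.02e-16). *FoxD_1* lay at 1275, 2202, 1792, 746 and 1031 CPM in the marker cells and at 0, 25.8, 184.7, 36.0 and 85.7 CPM in the others (4.48, SE 0.26, adjusted p = 6.069e-62). *RetL* lay at 2372, 1698, 1280.0, 1194 and 805 CPM against 5.97, 59.1, 155, 56.2 and 89.7 CPM (4.21, SE 0.25), so that the marker cells of every library stood above all others. *Gucy2g*, a receptor-type guanylyl cyclase by name, was higher by 4.19 (52 against 56 cells), *Syt6-2* by 4.65 (19 against 7) and *Cpeb1*, which binds messenger RNA, by 4.46 (19 against 9).

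**Figure D3:**
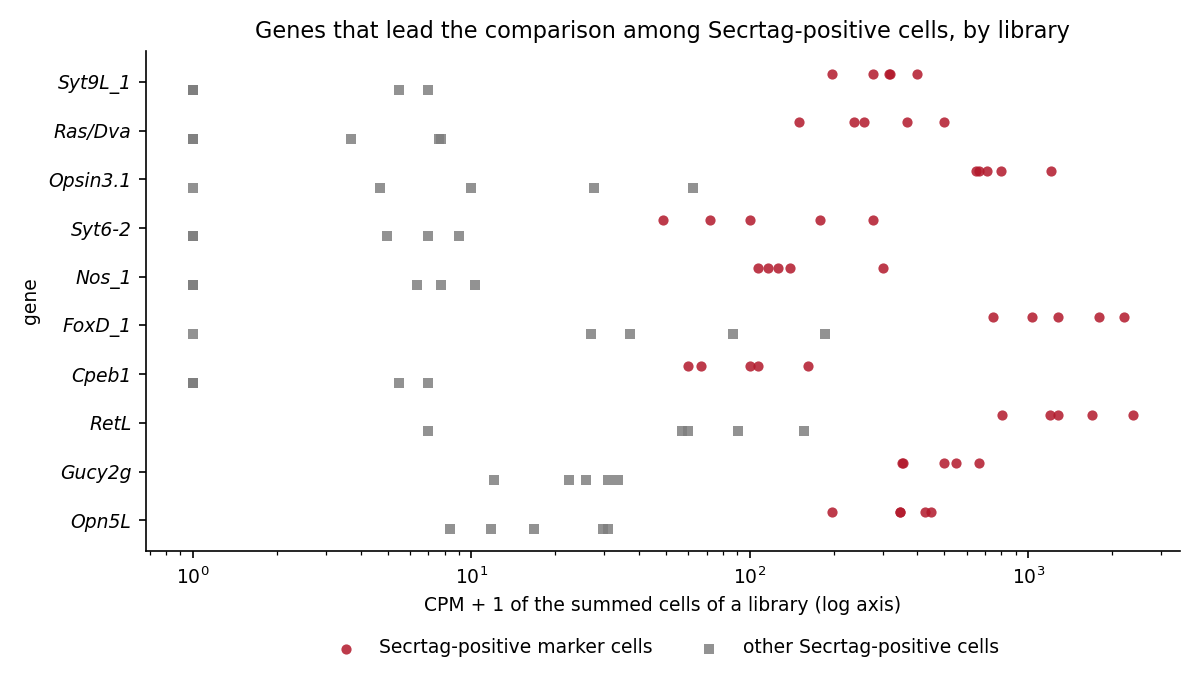
CPM plus 1 (horizontal log axis) of the 10 genes that lead upwards among *Secrtag*-positive cells, with 1 point per library for the 122 marker cells (circles) and the 1453 other cells (squares). The genes were chosen to be higher in the marker cells of every library. Each circle stands to the right of all squares of its gene, as for *FoxD_1* with 746 CPM in its lowest marker cell library and 184.7 CPM in the highest library of the others.

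The reverse shares were also counted. Of all *Secrtag*-positive cells with a *Syt9L_1* UMI, 37 of 44 were marker cells (84.1%, 69.9 to 93.4). So were 37 of 47 with *Ras/Dva* (78.7%), 72 of 112 with *Opsin3.1* (64.3%) and 25 of 42 with *Nos_1* (59.5%). The shares were lower for *Opn5L* (55.17%), *Gucy2g* (48.15%), *FoxD_1* (42.37%) and *RetL* (37.75%). Over all cells, with or without *Secrtag*, 79 of 207 with *Opsin3.1* (38.2%) and 55 of 310 with *FoxD_1* (17.7%) were marker cells. These genes were chosen by comparing the same groups. Taking the 10 leading features together, chosen on these cells, 53 of 122 *Secrtag*-positive marker cells held at least 3 (43.4%). So did 6 of 62 *Secrtag*-negative marker cells (9.68%), 21 of 1453 other *Secrtag*-positive cells (1.45%) and 23 of 26556 other cells (0.0866%). Of these 23 cells 17 came from 60 hpf.

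Genes called lower included *NeuroD*, of the anterior and neurogenic list, and regulators and a hormone gene of the study's neuron subtype list. *NeuroD*, a proneural basic helix-loop-helix factor, was read in 1 of 122 marker cells against 100 of 1453 others, at 0, 0, 0, 0 and 5.96 CPM against 298, 295, 463, 256 and 59.1 CPM (log2 difference -5.67, SE 0.68, adjusted p = 2.376e-14). *Unc4.1_1*, a homeobox factor, had 3 against 544 UMIs (-4.34, SE 0.55), *Phox2* 2 against 463 (-4.08, SE 0.68) and *Isl*, a LIM homeobox factor, 15 against 1078 (-3.09, SE 0.37). *Phox2* was itself at 0 in the other cells of 42 hpf. *Bursicona*, which names a subunit of the hormone bursicon, had 2 against 340 UMIs (-3.82, SE 0.72).

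The 5 genes named by size of the fall had no UMI in the *Secrtag*-positive marker cells. *Hsp701D*, of the Hsp70 chaperones, was at least 5.21-fold lower (139 UMIs in the others), *Hb9*, a motor neuron homeobox factor in vertebrates, at least 4.99-fold (read in 35 of the others) and *Chrm3*, named for muscarinic acetylcholine receptors, at least 3.86-fold (103 UMIs). *Hey* (HER_22398.t1), a Notch target, was at least 3.64-fold lower (97 UMIs) and *Prdm12L* at least 2.96-fold (79 UMIs). *Hsp701D*, *Hb9* and *Chrm3* lost their call without the 60 hpf library, *Hey* without the 48 hpf library and *Prdm12L* without either the 42 or the 48 hpf library, and none of the 5 was called in the depth band.

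For serotonin handling, 3 of 14 features were called higher and none lower against other neural cells, beside 2.99% and 1.39% of all features. The median log2 difference of 0.30 became -0.04 with TMM factors over all features, where 2 were higher. *Maob* HER_44859.t1 lay at 177, 138, 118, 99.5 and 29.8 CPM in the marker cells and at 0, 3.69, 10.7, 11.2 and 2.66 CPM in the others (3.94, SE 0.59, adjusted p = 2.046e-09), without overlap. *Slc18a2* lay at 283, 45.9, 78.8, 49.8 and 238 CPM against 41.8, 70.2, 34.8, 13.5 and 23.3 CPM (2.18, SE 0.40, adjusted p = 4.74e-06). It was higher in 4 of 5 libraries, the exception being 42 hpf, and was read in 29 of 122 marker cells (23.8%). *Gch1_1* was higher by 1.06 (348 against 176 CPM). *Aadc* and *Ddc*, the decarboxylases that complete serotonin synthesis, were read over 9 features in 2 of 122 marker cells (1.64%, 0.199 to 5.80) and 14 of 1453 others (0.964%, 0.528 to 1.61), too few UMIs for a test. The cells are therefore named here by the genes that chose them.

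Other transmitter genes, opsins and division genes were read beside 2.99% of all features called higher and 1.39% lower. Of 14 features of other transmitters, *Nos_1* was higher, while *Th*, tyrosine hydroxylase of catecholamine synthesis, and *Dbh*, dopamine beta-hydroxylase, were lower. *Th* was read in 1 of 122 marker cells against 63 of 1453 others (-2.49), and *Dbh* had 0 against 75 UMIs (at least 2.81-fold lower). The list median was -0.77, and -0.53 with genes at 0 set to their bound. Of 3 opsins tested, *Opsin3.1* and *Opsin2* (1.24) were higher, *Opsin2* not with TMM factors over all features. In the division list 1 of 12 features, *Cdk1*, was lower (-2.15).

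Synapse and secretion genes were higher against other *Secrtag*-positive cells as scaled here. Of 20 features 11 were called higher and none lower, beside 2.99% and 1.39% of all features. The list median was 0.70 against 0.04 over all features. With DESeq2 size factors 7 were higher and 1 lower, and with TMM factors over all features 4 and 2. *Rims_1* (2.62), *Unc13* (2.30), a primer of vesicles, *Pcsk2* (1.55) and *Pam_2* (1.43) were the furthest from 0.

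The anterior and neurogenic list moved mainly downwards, under every scaling run, with 3 of 28 features higher and 9 lower and a median of -1.09. Of all features 2.99% were called higher and 1.39% lower. *Z133_1* lay at 1452, 1606, 1142, 945 and 358 CPM in the marker cells against 125, 107, 262, 76.5 and 50.5 CPM in the others (3.19, SE 0.25, adjusted p = 1.782e-35), again without overlap. *Z167* (3.89), a zinc finger factor, and *Lhx2_1* (1.26) were the others that rose. *Smadip*, of which 2 features fell (-3.69 and -2.78), *Scratch* (-3.30), *Lim1* (-2.68), *SoxC* (-1.62), *Six3* (-1.32), *SoxB1* (-1.26) and *Onecut* (-1.15) were lower beside *NeuroD*. *Six3* was still read in 34 of 122 marker cells, at 557 CPM against 1097 CPM.

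In the study's list of neuron subtype genes, 4 of 33 features were higher and 13 lower (median -1.05), beside 2.99% and 1.39% of all features. Under the other scalings 4 were higher and 6 to 16 lower. *FoxD_1* and *Ets1/2* (3.58, SE 0.38, 219 against 19.6 CPM), with *Opsin3.1* and *Nos_1*, belong to the genes by which the study marked its larval enteric neurons. The study picked these lists on libraries that include the present ones, so they are not independent evidence. *Gpr51* HER_17257.t1 (2.13), named for GABA-B receptors, and *Drd1L_1* (1.91), named for dopamine receptors, were the others that rose.

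**Figure D4:**
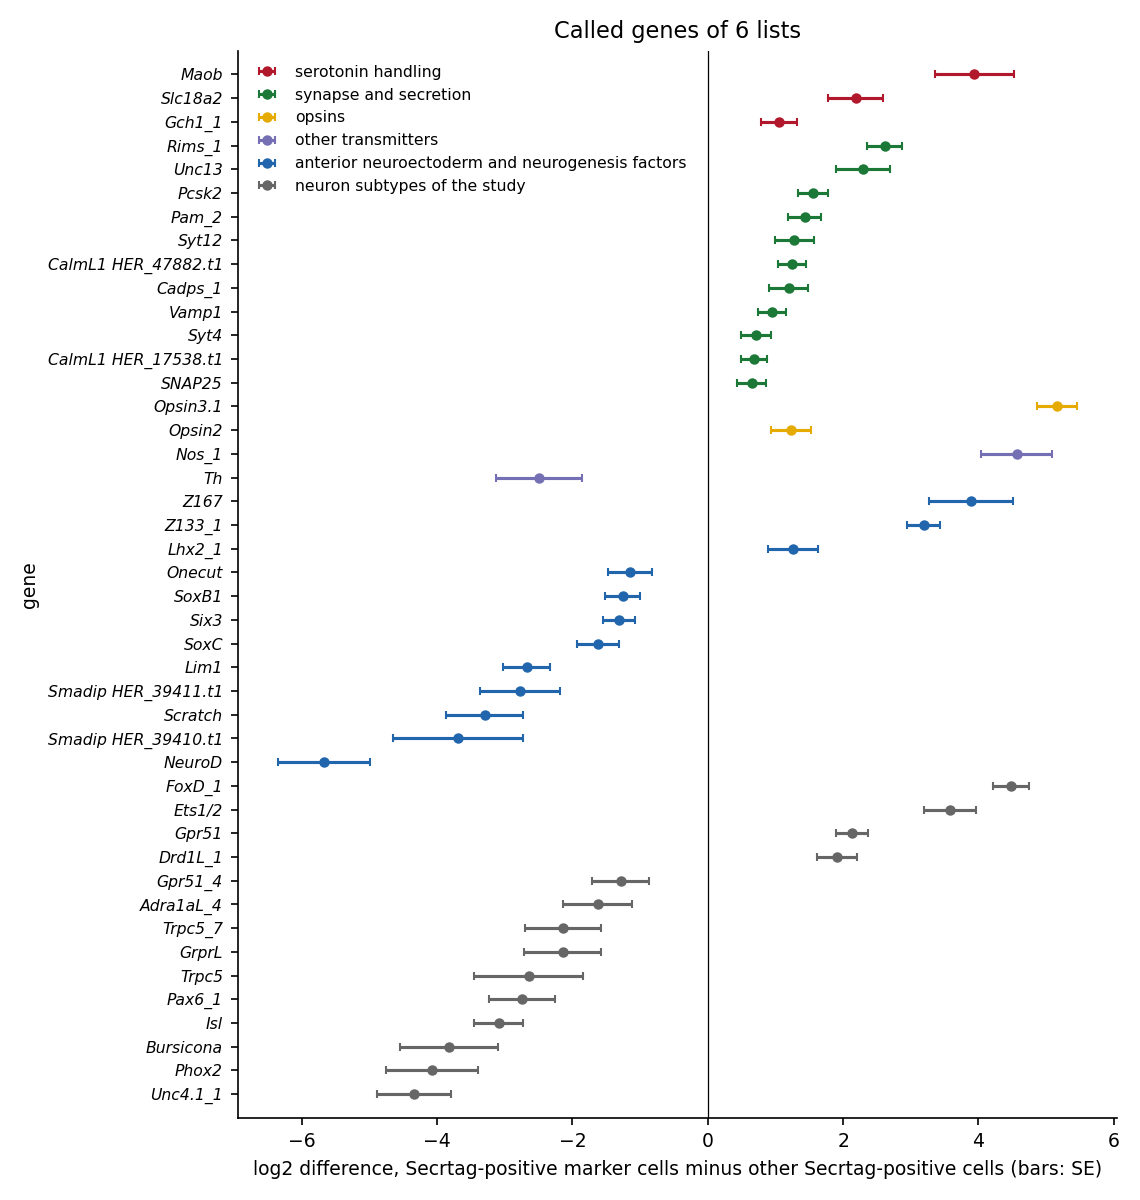
Log2 difference with its standard error (horizontal axis, *Secrtag*-positive marker cells minus other *Secrtag*-positive cells) for the called genes of 6 lists that had a UMI in both groups, coloured by list. Serotonin handling, synapse and opsin genes lie to the right of 0, and most anterior, neurogenic and subtype factors to the left, down to *NeuroD* at -5.67.

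The *Secrtag*-positive marker cells were not uniform. This was seen in the values first, and the comparison that follows was added afterwards. The 122 cells were split into 76 with a *Sert* UMI, of which 43 also held *Tph*, and 46 without, all of which held *Tph*. In order of age these were 10, 6, 8, 8 and 44 *Sert*-positive and 6, 9, 9, 2 and 20 *Sert*-negative cells. The fit used the 4 libraries with at least 5 cells on each side, which leaves out 56 hpf. Log2 differences and p-values of this split come from these 4 libraries, while UMIs, cells, CPM and bounds cover all 5. Median depths were 1947 UMIs in *Sert*-positive and 2397.5 UMIs in *Sert*-negative cells. Of 2249 features tested, 155 were called (6.89%), 72 higher in *Sert*-positive cells (3.2%) and 83 lower (3.69%). By DESeq2 17 were higher and 37 lower.

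Several genes with many UMIs in the *Sert*-negative cells were never read in a *Sert*-positive one. *Gucy1b2_1* had 0 UMIs in 76 *Sert*-positive cells and 554 in 27 of 46 *Sert*-negative cells, where it lay at 5076, 5308, 3756, 14245 and 2801 CPM in order of age, so that it was at least 257-fold lower in *Sert*-positive cells (adjusted p = 8.694e-47). *Orxn/HpcLr1* was read in 0 of 76 against 25 of 46 cells (at least 76.4-fold lower), *Zcchc11*, named for an enzyme that adds uridines to RNA, in 0 against 26 (at least 47.7-fold) and *Gpr103*, named for neuropeptide receptors, in 0 against 11 (at least 21.3-fold). *Taar7eL_2*, *Galr2L_14*, *Galr2L_7* and *Adrb2L_20* were likewise at 0 in *Sert*-positive cells and in 18, 16, 11 and 19 *Sert*-negative cells.

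A regulator and a receptor followed the same division. *Z133_1* lay at 0, 0, 0, 0 and 17.1 CPM in *Sert*-positive cells and at 3202, 2580, 1702, 3609 and 1144 CPM in *Sert*-negative cells (log2 difference -6.73, SE 0.61, adjusted p = 5.943e-25), without overlap. *Gpr51* HER_17257.t1 was read in 3 of 76 against 30 of 46 cells (-6.43, SE 0.55, adjusted p = 2.876e-28). All 10 genes named as lower kept their calls in every alternative run.

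Of the genes higher in marker cells than in other *Secrtag*-positive cells, some were higher in *Sert*-positive cells and others, such as *Z133_1* and *Gpr51*, lower. *Opsin3.1* was read in 61 of 76 *Sert*-positive cells (80.3%) against 11 of 46 *Sert*-negative cells (23.9%). Its level was 1749, 1580, 1856, 1078 and 922 CPM in *Sert*-positive cells and 547, 111, 58.7, 0 and 217 CPM in *Sert*-negative ones (2.92, SE 0.44, adjusted p = 6.734e-09), and the groups did not overlap. *Enp* lay at 1749, 3463, 599, 1348 and 1367 CPM against 234, 36.9, 58.7, 0 and 59.2 CPM (4.32, SE 0.51, adjusted p = 7.353e-15). *Snx16*, a sorting nexin of endosomes, was read in 24 of 76 *Sert*-positive and 0 of 46 *Sert*-negative cells (at least 8.40-fold higher), and *Gpx1_1*, a glutathione peroxidase, was higher by 3.34.

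Others of this direction rested on fewer UMIs. *Tgfb* (4.00), *Bcdo2* (3.50), *Syt15* (3.12), *Galnact2* (2.80) and *Nos_1* (2.75, 211 against 30.8 CPM) were called higher, and each lost its call without the 36 hpf library. *Tgfb* and *Galnact2* also lost it without 42 hpf, *Syt15*, *Galnact2* and *Nos_1* without 48 hpf, and *Nos_1* in 7 alternatives in all. *Bcdo2*, *Syt15*, *Galnact2* and *Nos_1* were not called by DESeq2 either. With no minimum of UMIs per gene *Tgfb*, *Syt15* and *Nos_1* lost their call, and with no library block *Bcdo2* and *Nos_1* did. *FoxD_1* was also higher (2.02, SE 0.34, 41 of 76 against 9 of 46 cells), as were *Hmx* (2.47), *SoxB2* (1.96), *Rax* (1.66) and *Z167* (3.39). *Ebf* (-4.42), *Opsin2* (-3.23), *Drd1L_1* (-2.81), *Z116* (-2.56) and *Six3* (-1.51) were lower. None of 4 serotonin handling features was called, and 1 of 16 synapse features was higher. Beside 3.2% of all features called higher and 3.69% lower, these counts are too small to read as a likeness or a difference.

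**Figure D5:**
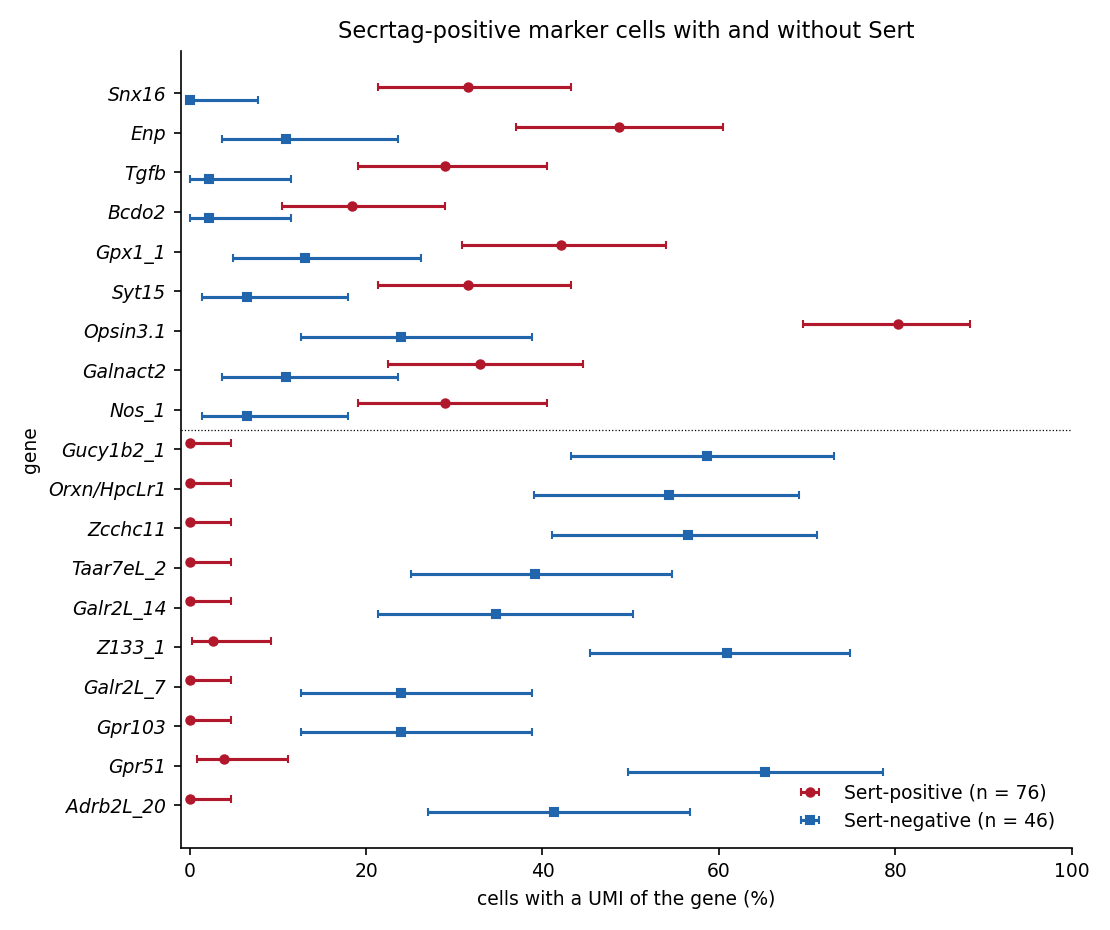
Share of cells with a UMI of each gene in percent (horizontal axis, 95% Clopper-Pearson intervals) in the 76 *Sert*-positive (circles) and 46 *Sert*-negative (squares) *Secrtag*-positive marker cells, for 9 genes named as higher (above the dotted line) and the 10 named as lower. *Opsin3.1* was found in 80.3% against 23.9% and *Gucy1b2_1* in 0% against 58.7%.

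Counts of cells with pairs of genes described the same division in the same cells. The genes were chosen by the comparisons above, so these counts are not further evidence of it. Of the 27 marker cells with *Gucy1b2_1*, 24 also held *Orxn/HpcLr1*, 26 *Zcchc11*, 25 *Z133_1* and 27 *Gpr51* HER_17257.t1. None of the 27 held *FoxD_1*, *Syt9L_1*, *Ras/Dva*, *Nos_1*, *Enp* or *Snx16*, and 2 held *Opsin3.1*, both at 60 hpf. The division was not complete, since 4 of the 27 held *Gucy2g*, 4 *Opn5L*, 2 *RetL* and 2 *Galnact2*. *Tgfb*, *Gpx1_1* and *Syt15* were each read in 1 of them. By contrast all 37 *Ras/Dva* cells held *FoxD_1*, as did 44 of 72 *Opsin3.1* cells. The *Gucy1b2_1* cells numbered 3, 5, 6, 2 and 11 in order of age and those with *Opsin3.1* or *FoxD_1* 10, 8, 9, 7 and 44, so both occurred in every library. Another 19 marker cells had none of the 3 genes, 10 of them with *Sert*.

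These 3 genes were then used to sort all 1575 *Secrtag*-positive cells, whether or not *Tph* or *Sert* was read in them. This sorting was also chosen after the values were seen, and no test was made of it. Of 121 cells with *Gucy1b2_1*, at a median of 1886 UMIs, 27 held *Tph* (22.3%, 15.3 to 30.8) and 0 held *Sert*, a count already fixed by the choice of *Gucy1b2_1*, which was at 0 in all 76 *Sert*-positive cells. Of 171 cells with *Opsin3.1* or *FoxD_1* and no *Gucy1b2_1*, at a median of 1814 UMIs, 46 held *Tph* (26.9%, 20.4 to 34.2) and 66 held *Sert* (38.6%, 31.3 to 46.3). Of 1283 cells with none of the 3 genes, at a median of 1464 UMIs, 16 held *Tph* (1.25%) and 10 held *Sert* (0.779%). All 3 genes were chosen for high levels in cells with *Tph* or *Sert*, so the contrast between these shares follows in part from that choice.

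*Tph* had no common course with age in these sets. In cells with *Gucy1b2_1* it lay at 488, 492, 248, 122 and 80.3 CPM in order of age, while the cells themselves numbered 5, 11, 19, 17 and 69. In cells with *Opsin3.1* or *FoxD_1* it lay at 942, 305, 193, 573 and 196 CPM, and *Sert* at 998, 275, 274, 842 and 451 CPM. In the first set the 2 earliest libraries were highest, while in the second 36 and 56 hpf were highest for both genes. The course of these levels with age was not tested.

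Detection of *Secrtag* and of the leading features also differed by the gene that marked the cell. Cells with both *Tph* and *Sert* were *Secrtag*-positive in 43 of 46 cases (93.5%), those with *Sert* alone in 33 of 42 (78.6%) and those with *Tph* alone in 46 of 96 (47.9%), at median depths of 2204.5, 1504 and 2110.5 UMIs. At least 3 of the 10 leading features were held by 24 of 46 cells with both genes (52.2%), 24 of 42 with *Sert* alone (57.1%) and 11 of 96 with *Tph* alone (11.5%). The last group included the 27 *Gucy1b2_1* cells, whose genes are not among these 10. The 10 features were chosen on *Secrtag*-positive marker cells, most of which held *Sert*, so these counts are not independent of that choice.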

How the data were processed

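Single-cell RNA was measured in 5 libraries of *He* larvae. The authors deposited UMI counts per feature and cell (38707 features, 31716 with a symbol), not normalized, and the submitters' processing notes name Cell Ranger 3.1.0 and Seurat 4.0. The genome build is not given in the sources used here. Kept cells had more than 200 and fewer than 4000 genes and fewer than 10000 UMIs. This removed 41 barcodes, 1 of them with a marker. Cells were not clustered, and doublets were neither called nor removed. No column belonged to another series (0 columns).

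UMIs were summed per library and group, in groups of at least 5 cells, and tested with edgeR 4.0.16 (quasi-likelihood, library as block, R 4.3.3) over features with at least 50 UMIs, or 20 among marker or *Secrtag*-positive cells. TMM factors came from features expected at 5 UMIs or more in the smallest sum, since factors over all features were off centre on simulated data. Alternatives used DESeq2 1.42.0, other scalings, no minimum, no block, at least 2 UMIs, a band of depth and each library left out. Figures and intervals used Python 3.11.15, scipy 1.17.1 and matplotlib 3.10.9.

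The members and gene lists were chosen with earlier results of these data known. Genes named were the 10 highest and 5 lowest log2 differences (10 lowest for *Sert*) among called features with a symbol, at least 20 UMIs in the higher group and the same direction in every library, plus called genes of the lists. A few of these genes are not reported here. The *Sert* split, the sets by *Gucy1b2_1*, *Opsin3.1* and *FoxD_1*, the counts over 10 features and the gene families were chosen after values were seen. Where both groups of a fit share a library, its p-values measure how the difference between the groups varies between libraries.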

Additional observations from a re-analysis of the deposited data

How the results depend on the processing

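The share of marker cells was 1.01% among cells with over 500 genes, 0.294% after thinning and 0.284% with at least 2 UMIs, and 0.591% to 0.742% with each library left out. *Secrtag* was then found in 94.7% of cells with at least 2 UMIs and in 55.2% to 69.9% with a library left out, and *Sert* in 20.8% of *Tph* cells after thinning.

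Counts of calls depended on scaling more than the named genes did. Against other cells, DESeq2 called 497 features higher and 385 lower, DESeq2 size factors 554 and 664, TMM factors over all features 461 and 1141, no block 564 and 29, at least 2 UMIs 1143 and 90, and the depth band 635 and 62. With a library left out, 630 to 704 were higher and 110 to 194 lower. For *Secrtag*-positive against *Secrtag*-negative marker cells, DESeq2 called 161 higher, no minimum of UMIs 226 higher and 58 lower, no block 49 lower, the depth band 64 and 3, and leaving out a library 230 to 322 and 40 to 108. For *Secrtag*-positive marker cells against other *Secrtag*-positive cells, the counts were 165 and 149 by DESeq2, 201 and 284 with size factors, 155 and 398 with TMM over all features, 180 and 39 with no block, 281 and 76 with at least 2 *Tph* and *Sert* UMIs, 189 higher with at least 2 *Secrtag* UMIs, 79 lower in the depth band, and 208 to 227 and 83 to 117 with a library left out. For *Sert*-positive against *Sert*-negative cells, they were 17 and 37 by DESeq2, 46 and 89 with size factors, 46 and 90 with TMM over all features, 37 higher with no minimum, 35 and 49 with no block, and 22 to 49 and 41 to 58 with a library left out. The cause of these shifts was not tested. The median log2 difference of all features was 0.10 against other cells as reported and -0.51 with TMM over all features.

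No named gene reversed. Genes named as higher kept their call in all 138 alternative values against other cells and in all 149 against other *Secrtag*-positive cells, but those named as lower kept it in 53 of 70 and 53 of 72. In the *Secrtag* split of marker cells, genes named as higher kept it in 136 of 139 values and those named as lower in 55 of 59. For the *Sert* split these counts were 86 of 111 and 115 of 115. The rule of at least 2 UMIs could not be fitted within marker cells, nor the depth band for the *Sert* split. Depth limits all shares, since most marker cells rest on 1 UMI (108 of 184).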

Other observations

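Some gene families were counted because their members had led the calls, so the counts describe that choice. Beside them, 5.66% of all features were called higher in marker cells than in other cells and 2.99% in *Secrtag*-positive marker cells than in other *Secrtag*-positive cells. Of features named as guanylyl cyclases, which make cyclic GMP, 6 of 12 tested were higher in marker cells than in other cells and 5 of 10 were higher in *Secrtag*-positive marker cells than in other *Secrtag*-positive cells. They were *Gucy1b2_1*, *Gucy1b2*, *Gucy2g*, *Gucy2gL* and *Npr1_7* in both. Of phosphodiesterases, which include enzymes that break cyclic nucleotides down, 6 of 15 were higher than in other cells and 2 of 15 than in other *Secrtag*-positive cells, *Pde9a_1* and *Pde9a*. Synaptotagmins gave 8 of 11 and 6 of 12, opsins 4 of 6 and 3 of 4, and galanin receptor-like genes 2 of 4 and 3 of 4. No member of these families was called lower as reported. Potassium channels gave 11 of 27 higher against other cells and none lower, with 5 higher and 2 lower under TMM factors over all features, and 4 of 22 against other *Secrtag*-positive cells.

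Among *Secrtag*-positive cells without a *Tph* or *Sert* UMI, 21 of 1453 held at least 3 of the 10 genes that led upwards in the marker cells, and such cells are counted among the others in the comparisons with other cells and with other *Secrtag*-positive cells.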
